A study of Mus musculus with 22 samples.

Results

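Islets of 5 wild-type (WT) mice on the background labelled Mixed were compared with islets of 5 WT mice on the background labelled C57, which is 10 of the 22 mice of the series. The samples were chosen by their genotype labels alone. All genes with TPM of at least 1 in at least 5 of the 22 samples were tested. Every library held poly(A) RNA from isolated islets of male mice. Their age is given as 5.5 weeks, and as 5 to 6 weeks in the headers of the value columns. Each library is counted as 1 mouse, which the labels do not spell out, so the tests measure the spread between these libraries. The other 12 mice, 6 on each background, were heterozygous (Het) for the S64F change in MAFA, a transcription factor of beta cells, and they gave a second measurement of the background difference in other animals. The labels do not give the strains that make up the Mixed background, the C57 substrain or the litters, and the library numbers run group after group, so library order and background cannot be told apart. The values were TPM (transcript abundance per fixed library total), which scale each gene by its length.

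Pancreatic islets are small endocrine organs built mostly of insulin-producing beta cells, with glucagon-producing alpha cells, somatostatin-producing delta cells and a few other types. Laboratory mouse strains carry different alleles at many genes, and a line kept on a mixed background can also differ from animal to animal where alleles still segregate. Beta cells fold large amounts of proinsulin in the endoplasmic reticulum (ER), and the unfolded protein response raises ER chaperones when the folding load grows. Txnip, which binds and inhibits thioredoxin, is induced by glucose in beta cells.

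The tissue label fitted the hormone levels. Ins1 and Ins2, the insulin genes, together held 39.3 ± 2.76% of all TPM in C57 WT islets (SD, n = 5) and 39.9 ± 3.08% in Mixed WT islets (n = 5), a difference within the spread (two-sided exact permutation p = 0.802). Mitochondrially encoded transcripts held 4.27 to 9.76% of TPM in C57 and 4.37 to 9.76% in Mixed libraries. The 3 libraries with the highest mitochondrial share, C57 replicates 1 and 5 and Mixed replicate 4 (8.09 to 9.76%), were left out in an added fit. Xist, a transcript of female cells, reached at most 0.111 TPM in any of the 10 mice. Across genes, log2(TPM + 1) correlated at 0.950 to 0.986 in the 20 pairs of mice of the same group and at 0.925 to 0.967 in the 25 pairs of different groups. The first principal component of the 10 libraries held 37.0% of the variance, with all C57 mice on one side of 0 and all Mixed mice on the other.

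Of 16756 genes tested, 1892 (11.3%) differed between Mixed and C57 WT islets with a limma adjusted p under 0.05, the rule for "called" throughout. Of these, 1056 (6.3% of genes tested) were higher and 836 (4.99%) lower in Mixed. The median absolute difference of the called genes was 0.60 on the log2 scale, and 383 of them, 263 higher and 120 lower, differed by at least 1. The groups did not overlap for 6.12% of genes tested. The split of the calls followed the scaling, since quantile normalization gave 1187 higher and 1434 lower, a total taken without the most abundant genes gave 1092 higher and 1335 lower, and median-of-ratios scaling gave 1359 higher and 1136 lower. A fit on the 10 WT mice alone called 831 genes, and the fit without the 3 libraries of highest mitochondrial share called 797. Among the autosomes and the X chromosome the share of tested genes called ranged from 8.57% on chromosome 8 to 14.3% on chromosome 14.

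**Figure D1:**
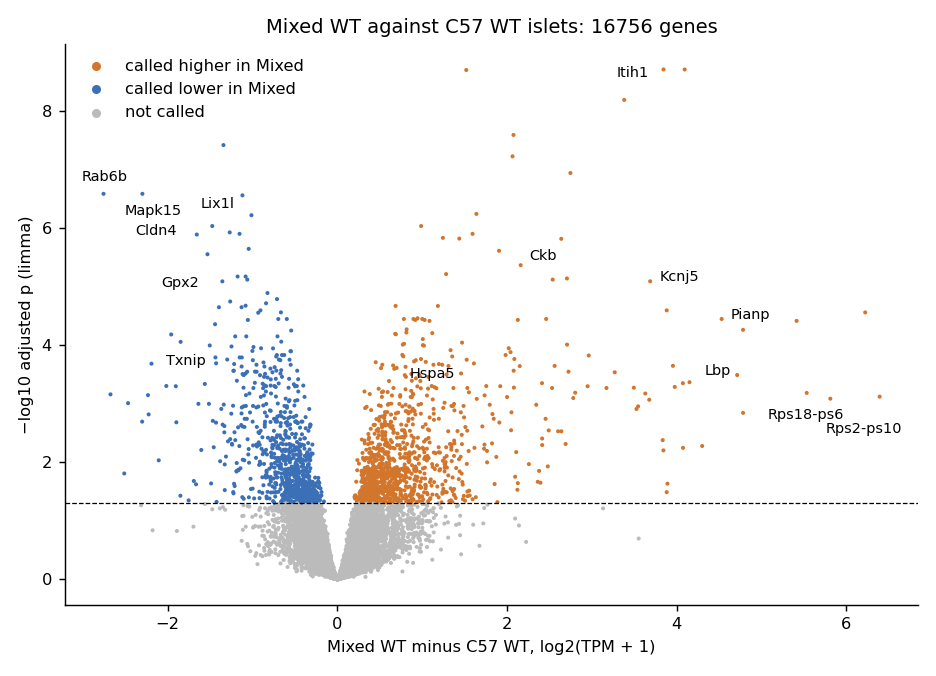
Each point is 1 of the 16756 genes tested, with the log2(TPM + 1) difference between Mixed and C57 WT islets on the horizontal axis and −log10 of the limma adjusted p on the vertical axis. The dashed line marks the threshold, above which 1056 genes are higher in Mixed (orange) and 836 lower (blue). The points at the far right, led by Rps2-ps10 at 6.39, have no counterpart of that size among lower genes, where Rab6b at -2.76 is the farthest left of those called.

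Many of the largest differences were of genes close to silent in C57 mice and plainly expressed in Mixed mice. Of the 16756 genes tested, 15 were under 1 TPM in all 5 C57 mice and at least 5 TPM in all 5 Mixed mice. The reverse was found for 0 genes. The 5 Mixed WT mice alone were enough to carry these 15 past the filter of 1 TPM in 5 samples. Most of the 15 are annotated as processed pseudogenes, a class described further below, while Lbp and Kcnj5 are protein-coding genes among them. Itih1 and Pianp, which rose above 1 TPM in some C57 mice, are not among the 15. Itih1, a heavy chain of the inter-alpha-trypsin inhibitor, was at 1.54, 1.22, 1.17, 0.913 and 1.31 TPM in C57 replicates 1 to 5. In Mixed replicates 1 to 5 it was at 42.8, 17.0, 33.4, 49.4 and 23.2 TPM, a log2 difference of 3.84 (SE 0.24, limma adjusted p = 1.96e-09). The groups were far apart, and the Het mice gave 3.38 (adjusted p = 1.38e-09).

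Pianp, a neural membrane protein that binds the receptor PILR alpha, was at 0.589 to 1.11 TPM in C57 WT mice. In Mixed WT replicates 1 to 5 it was at 74.1, 64.6, 27.0, 27.0 and 33.4 TPM, a log2 difference of 4.53 (SE 0.59, limma adjusted p = 3.58e-05). All Mixed mice were above all C57 WT mice, with replicates 1 and 2 the highest. In the Het mice, 5 of the 6 C57 animals were at 0.896 to 1.39 TPM, but C57 Het replicate 3 was at 35.0 TPM, inside the range of Mixed WT mice.

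Lbp, the secreted lipopolysaccharide-binding protein, stood at 0.180 to 0.713 TPM in C57 WT mice. It was at 40.2, 60.2, 24.6, 18.9 and 59.5 TPM in Mixed WT replicates 1 to 5, a log2 difference of 4.71 (SE 0.76, limma adjusted p = 0.000325). Mixed replicates 3 and 4 were lower than the other 3. Ckb, the brain-type creatine kinase that buffers ATP, was already expressed in C57 mice, at 76.0, 86.4, 58.5, 97.3 and 71.1 TPM. In Mixed mice Ckb reached 323, 297, 387, 529.7 and 255 TPM, a log2 difference of 2.16 (SE 0.24, adjusted p = 4.32e-06), and the Het mice gave 1.98.

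Kcnj5, a subunit of G-protein-gated potassium channels, was at 0.0265 to 0.178 TPM in C57 WT and at 16.7, 14.6, 12.6, 6.78 and 18.2 TPM in Mixed WT mice. The log2 difference of 3.69 (SE 0.42, limma adjusted p = 8.14e-06) was larger than the 0.75 of the Het mice (interaction adjusted p = 0.00559). Among the Mixed Het mice, replicate 3 was at 9.34 TPM and replicate 1 at 2.51 TPM, while the other 4 were at 0.0653 to 0.438 TPM. Tdrd6, a germ-cell tudor-domain protein, differed by 2.54 in WT (adjusted p = 7.61e-06) and 0.25 in Het mice (interaction adjusted p = 0.00269). Other genes among the largest increases were Angptl7 at 2.95 (adjusted p = 0.000504), whose Mixed replicate 4, at 4.92 TPM, was next to the C57 range, and Arhgap36 at 2.13 (adjusted p = 3.72e-05).

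Among genes lower in Mixed mice, Rab6b, a small GTPase of Golgi traffic, showed the largest difference of those the naming rule selected. It was at 13.2, 12.5, 15.9, 16.9 and 13.0 TPM in C57 and at 1.11, 2.24, 0.255, 1.34 and 1.88 TPM in Mixed mice. The log2 difference was -2.76 (SE 0.24, limma adjusted p = 2.61e-07) and -2.15 in the Het mice (adjusted p = 2.25e-06). Cldn4, a tight-junction claudin, was at 81.6 to 132 TPM in C57 and 25.7 to 45.2 TPM in Mixed mice (-1.66, adjusted p = 1.29e-06). Mapk15, an atypical MAP kinase, was at 88.7 to 172 TPM in C57 and 15.98 to 27.1 TPM in Mixed mice (-2.30, adjusted p = 2.61e-07). For both genes the background difference was larger in WT than in Het mice, where it was -0.64 for Cldn4 and -0.47 for Mapk15 (interaction adjusted p = 0.0108 and 0.000879).

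S100z, a calcium-binding protein, and Ldah, a lipid-droplet hydrolase, were listed at 0 in some Mixed mice and not in others. S100z was at 11.3, 14.5, 12.2, 16.7 and 7.52 TPM in C57 WT and at 4.78, 0, 4.58, 0.119 and 0 TPM in Mixed WT replicates 1 to 5. Ldah was at 5.23 to 7.89 TPM in C57 WT and at 3.60, 0, 0, 2.76 and 0.00605 TPM in Mixed WT. Both were called lower (adjusted p = 0.000694 and 0.00929), and the Mixed mice fell into values near 0 and values nearer to C57. Ldah was again uneven in Mixed Het mice, at 4.91, 0, 4.21, 0.00593, 3.63 and 0 TPM. C8b, a chain of complement component 8, was at 17.5 to 49.2 TPM in C57 and 5.25 to 16.4 TPM in Mixed WT mice (-1.85, adjusted p = 8.80e-05; interaction adjusted p = 0.0402). Rgs2, a regulator of G-protein signalling, differed by -1.69 (adjusted p = 0.0209), and without C57 replicate 4, at 170.0 TPM, by -1.39 (adjusted p = 0.0580). With no filter on low values its adjusted p was 0.0509.

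The difference was measured again in the Het mice, which share no animal with the WT comparison. Of the 1892 genes called in WT, 607 were called the same way there, 32.1% of the WT calls and 17.7% of the 3428 genes called in Het mice (20.5% of genes tested). Another 56 were called the opposite way, and 1413 (74.7%) had the same sign. Over the called genes the 2 sets of log2 differences correlated at Pearson 0.73 and Spearman 0.61, as a description across genes that were chosen for their WT difference. The interaction passed for 1233 genes (7.36% of genes tested) and for 415 of the WT calls (2.48% of genes tested). Of those 415, 342 were not called in Het mice, 56 were called the opposite way and 17 the same way. The Het mice also carry S64F, so repetition across animals and an effect of genotype cannot be told apart where the differences disagree.

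**Figure D2:**
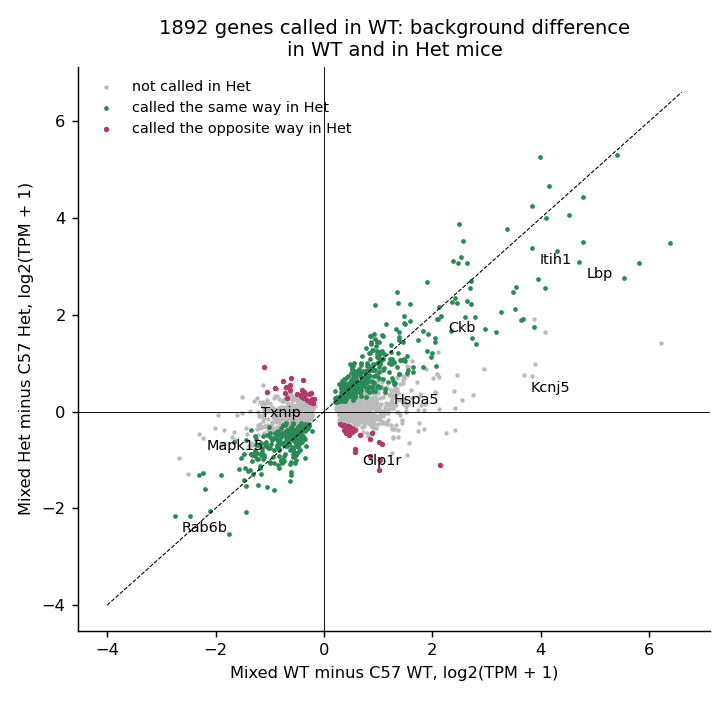
Each point is 1 of the 1892 genes called in WT islets, with the Mixed minus C57 difference in log2(TPM + 1) in WT mice on the horizontal axis and in Het mice on the vertical axis, and the dashed line marks equal differences. Green points (607) were called the same way in Het mice, pink points (56) the opposite way and grey points were not called there. Itih1, Ckb and Rab6b lie near the dashed line, while Kcnj5 (3.69 in WT, 0.75 in Het) and Mapk15 (-2.30 in WT, -0.47 in Het) lie closer to the horizontal line at 0.

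Genes of the unfolded protein response were higher in Mixed WT islets. Of 25 listed genes, all tested, limma called 16 higher (64%, against 6.3% of all genes) and 0 lower, with 19 higher and 0 lower at an unadjusted p under 0.05, which 2385 of the 16756 genes passed upward and 2055 downward. The median log2 difference was 0.66, against 0.01 over all genes tested, and 24 of the 25 were positive. In 8 of them every Mixed mouse was above every C57 mouse (2.91% of all genes), and in 0 the reverse (3.21% of all genes). Several of these genes are known to carry the ER stress response element in their promoters, the paired site bound by NF-Y and ATF6.

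The promoters of 4 of the 5 genes called higher with a match to that element are printed to show where it lies. They are RefSeq sequences in build GRCm38.p6, the 250 bases before each gene's start, read 5′ to 3′ on the gene's strand. Capitals mark each match, on either strand, to CCAAT followed after 9 bases of any kind by CCACG.
Hspa5, chr2:34771840-34772089, plus strand: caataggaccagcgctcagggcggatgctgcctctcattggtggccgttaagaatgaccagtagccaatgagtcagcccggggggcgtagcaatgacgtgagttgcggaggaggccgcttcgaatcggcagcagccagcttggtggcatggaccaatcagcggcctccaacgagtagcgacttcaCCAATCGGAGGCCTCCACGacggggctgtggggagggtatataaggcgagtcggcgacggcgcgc
Hsp90b1, chr10:86705445-86705694, minus strand: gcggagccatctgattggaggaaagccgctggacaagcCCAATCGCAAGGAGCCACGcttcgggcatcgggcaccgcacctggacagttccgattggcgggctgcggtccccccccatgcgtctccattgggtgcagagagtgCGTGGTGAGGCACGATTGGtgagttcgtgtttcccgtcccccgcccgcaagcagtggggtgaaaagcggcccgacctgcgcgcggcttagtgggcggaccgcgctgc
Calr, chr8:84846932-84847181, minus strand: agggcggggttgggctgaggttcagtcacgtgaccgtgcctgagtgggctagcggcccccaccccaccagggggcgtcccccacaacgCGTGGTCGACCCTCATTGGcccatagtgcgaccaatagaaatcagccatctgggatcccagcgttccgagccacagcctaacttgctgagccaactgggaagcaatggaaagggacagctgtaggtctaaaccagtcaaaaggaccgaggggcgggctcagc
Creld2, chr15:88819396-88819645, plus strand: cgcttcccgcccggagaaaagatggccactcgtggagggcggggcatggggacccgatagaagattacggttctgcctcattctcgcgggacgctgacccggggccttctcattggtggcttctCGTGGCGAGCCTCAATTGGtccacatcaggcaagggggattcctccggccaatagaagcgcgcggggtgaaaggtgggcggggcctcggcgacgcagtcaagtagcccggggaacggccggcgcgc
The element was present in the promoter windows (250 bases before to 50 after the start) of 7 of the 23 list genes matched in the RefSeq table, and in 0.137% of all 27025 genes there. The other motif searched here, printed with Txnip, had 0 matches in these 23 windows, so the motifs do not overlap there. Of the 7 list genes with a match 5 were called higher, and of the 16 without one 9 were.

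Hspa5, which encodes the ER chaperone BiP, was at 959, 1639, 1017, 1247 and 793 TPM in C57 WT replicates 1 to 5. It was at 2284, 3212, 3542, 2117 and 1525 TPM in Mixed WT replicates 1 to 5, a log2 difference of 1.15 (SE 0.19, limma adjusted p = 0.000523). The groups overlapped only in that Mixed replicate 5 lay below C57 replicate 2. Hsp90b1, the ER form of HSP90 and the one promoter above with matches on both strands, was at 472, 775, 643, 672 and 435 TPM in C57 and 908, 1344, 1521, 995 and 750 TPM in Mixed mice. Its log2 difference was 0.87 (SE 0.16, adjusted p = 0.00136), and again only Mixed replicate 5 lay below C57 replicate 2.

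Calr, the calcium-binding lectin chaperone calreticulin, was at 574 to 817 TPM in C57 and 886 to 1332 TPM in Mixed mice (0.67, SE 0.11, limma adjusted p = 0.000254). Creld2, an ER-resident protein induced by ER stress, was at 159, 232, 203, 250 and 176 TPM in C57 and at 325, 381, 381, 329 and 393 TPM in Mixed mice. The 2 groups did not overlap for either gene. The log2 difference of Creld2 was 0.84 (SE 0.16, adjusted p = 0.00183) in WT and 1.21 in the Het mice (adjusted p = 1.25e-05).

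The stress-induced transcription factors of the list gave a mixed picture. Ddit3, which encodes CHOP, was at 118, 82.0, 53.0, 66.4 and 80.0 TPM in C57 and at 170.0, 236, 264, 141 and 92.8 TPM in Mixed mice (1.12, SE 0.28, limma adjusted p = 0.0120). Atf3 was at 99.0 to 397 TPM in C57 and 216 to 695 TPM in Mixed mice (1.24, adjusted p = 0.00945), with overlapping groups, and its adjusted p was 0.0784 in WT mice alone and 0.127 without the 3 libraries of high mitochondrial share. Atf4, whose protein drives amino acid and redox genes, was at 278 to 368 TPM in C57 and 251 to 432 TPM in Mixed mice (0.02, adjusted p = 0.941). Asns, an asparagine synthetase gene that ATF4 is known to activate, differed by 0.66 (adjusted p = 0.00315), and by 0.51 without those 3 libraries (adjusted p = 0.0836).

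In the Het mice 12 of the 25 genes were called higher and 0 lower (13.3% of all genes were higher and 7.13% lower there), with a median of 0.40 and 16 of the 25 at an unadjusted p under 0.05 in either direction. Of the 16 genes called in WT, 10 were called higher in Het mice too. Hspa5 gave 0.49 there (adjusted p = 0.0534) and Hsp90b1 0.38 (adjusted p = 0.0773). The interaction passed for Ddit3, at -0.24 in Het mice (adjusted p = 0.0340), and for Asns, at -0.06 (adjusted p = 0.0248).

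**Figure D3:**
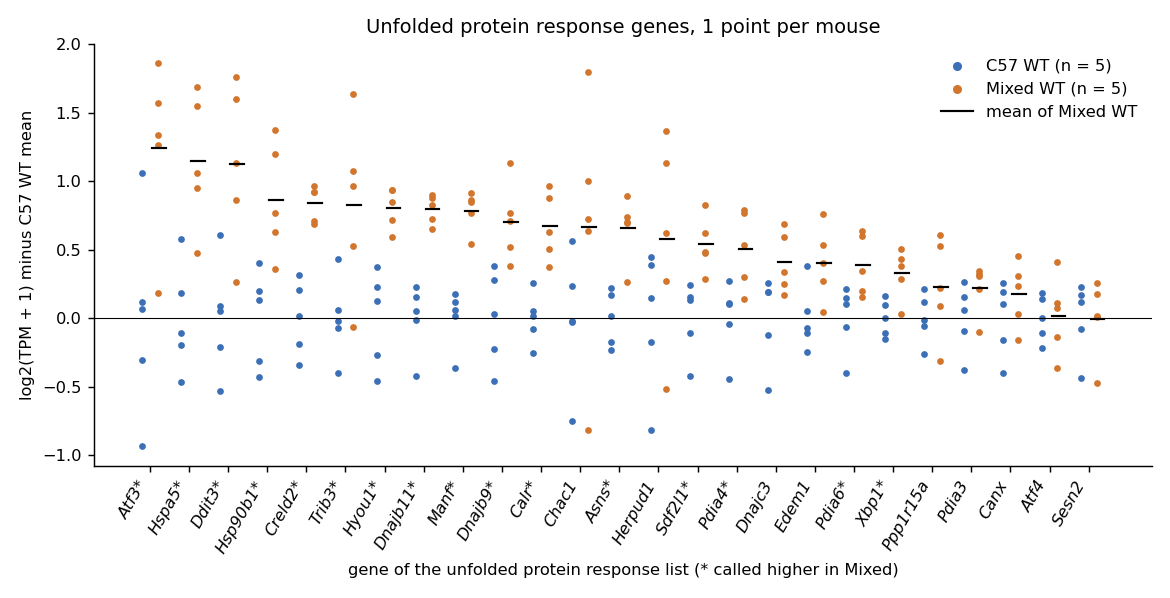
Each point is 1 mouse, and the vertical axis gives log2(TPM + 1) minus the mean of the 5 C57 WT mice for the 25 genes of the unfolded protein response list, ordered by their difference. Blue points are C57 WT, orange points Mixed WT and black bars the Mixed mean, and 16 genes marked with an asterisk were called higher. The Mixed mean lies highest for Atf3 (1.24) and Hspa5 (1.15), and near 0 for Atf4 (0.02).

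Markers of acinar cells and of handling were read beside this list. Of 26 acinar genes tested, which come from exocrine tissue rich in ER, 24 were positive with a median of 0.53, and limma called 1 higher (3.85%, against 6.3% of all genes) and 0 lower (5 and 1 at an unadjusted p under 0.05). Summed acinar marker levels were 435 to 705 TPM in C57 and 312 to 1445 TPM in Mixed mice, 0 of the 29 markers was at 0 in every mouse, and the share of TPM did not differ beyond its spread (0.0571 ± 0.0124% and 0.0867 ± 0.0454%, exact permutation p = 0.238). Without Mixed replicate 4 that difference was 0.0434 percentage points (exact permutation p = 0.0397, before adjustment over the 5 shares). With an acinar score in the model 13 of the 25 unfolded protein response genes were called higher. Of 27 immediate early genes tested, which respond to cell isolation among other stimuli, 26 were positive with a median of 0.45, and limma called 3 higher (11.1%, against 6.3%) and 0 lower (12 and 0 at an unadjusted p under 0.05). Atf3 is among those called and is counted in the unfolded protein response list as well, so the lists are not separate. The part of the isolation response in the result was not tested, nor was that of acinar RNA beyond this covariate. Without the 3 libraries of high mitochondrial share 9 of the 25 unfolded protein response genes were called.

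Txnip was lower in Mixed WT islets, and so was its relative Arrdc4, another arrestin-domain gene that glucose induces through ChREBP and MondoA. Txnip was at 1859, 901, 913, 924 and 1424 TPM in C57 and at 641, 399.9, 353, 469 and 525 TPM in Mixed replicates 1 to 5. The log2 difference was -1.30 (SE 0.20, limma adjusted p = 0.000177), and the groups did not overlap. Arrdc4 was at 41.4, 11.8, 14.4, 11.6 and 23.1 TPM in C57 and at 6.65, 6.25, 3.84, 5.73 and 6.49 TPM in Mixed mice (-1.51, SE 0.28, adjusted p = 0.00101). C57 replicates 1 and 5 were the highest for both genes.

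The Het mice gave no call for either gene, with 0.22 for Txnip (limma adjusted p = 0.422) and 0.30 for Arrdc4 (adjusted p = 0.446). The difference between WT and Het passed the interaction test for both (adjusted p = 0.00290 and 0.00716). Txnip had been placed in a joint list of disallowed and dedifferentiation genes, where limma called it alone lower, 1 of 21 tested (4.76%, against 4.99% among all genes). In that list 0 were called higher (4 higher and 3 lower at an unadjusted p under 0.05). The Txnip promoter is printed because its start is known for the glucose-response element, here searched on both strands as CACG followed after 7 bases by a further CACG and shown in capitals (250 bases before the start, RefSeq, GRCm38.p6).
Txnip, chr3:96557707-96557956, plus strand: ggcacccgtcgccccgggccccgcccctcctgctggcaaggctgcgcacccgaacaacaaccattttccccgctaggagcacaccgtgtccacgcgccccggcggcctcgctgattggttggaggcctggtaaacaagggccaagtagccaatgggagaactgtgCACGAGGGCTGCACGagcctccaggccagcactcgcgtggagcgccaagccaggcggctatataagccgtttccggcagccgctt
The same letters were present in 0.725% of the 27025 genes' windows, and no match was present in the window of Arrdc4.

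Txnip lies in the run of 25 consecutive tested genes with the most calls in the genome, on chromosome 3, where 13 of the 25 were called (median over 15574 overlapping runs 3). Calls went both ways within it. Lix1l, a neighbour of Txnip, was at 15.6 to 18.8 TPM in C57 and 7.70 to 8.44 TPM in Mixed mice, a log2 difference of -1.01 (SE 0.10, limma adjusted p = 6.05e-07). Its Het difference was smaller, -0.32 (adjusted p = 0.0119; interaction adjusted p = 0.00450). H2bc18, a histone H2B gene, was at 0 to 0.258 TPM in C57 and 0.874 to 4.17 TPM in Mixed mice (1.53, adjusted p = 0.00289). Gm15441 is annotated on the opposite strand across Txnip (GENCODE M21), and Gm42743 across H2bc18. The library kit and the table give no strand of counting, so reads of such overlapping pairs cannot be told apart.

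**Figure D4:**
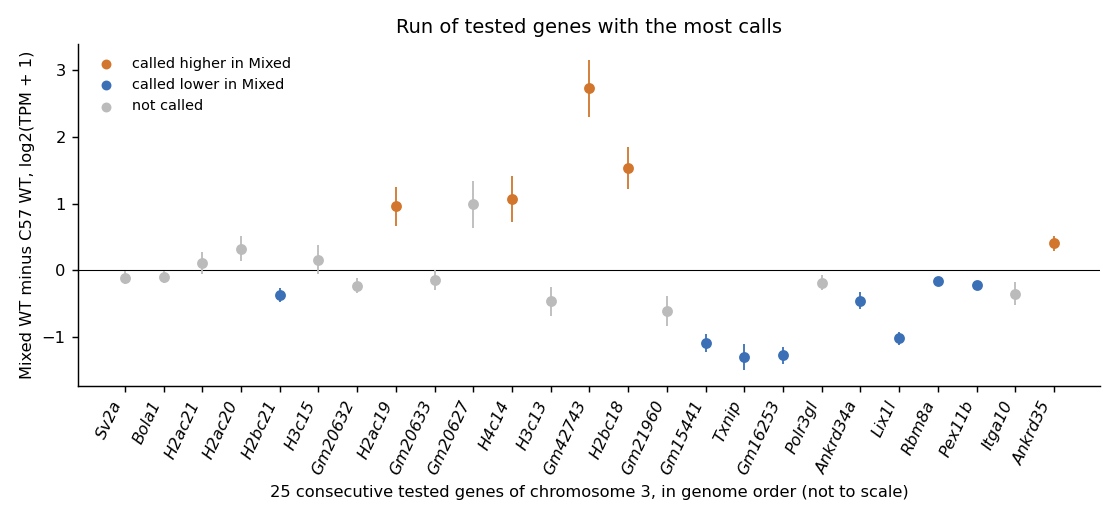
Points give the Mixed minus C57 WT difference in log2(TPM + 1) with its standard error for 25 consecutive tested genes of chromosome 3 in genome order, spaced evenly and not to scale. Orange points were called higher, blue points lower and grey points not called, 13 of the 25 being called. The highest point is Gm42743 at 2.72, and the called genes from Gm15441 to Lix1l are all lower in Mixed.

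A second run on chromosome 2 held 10 calls among 25 genes. In it Slc28a2b, a nucleoside transporter gene, was at 3.58 to 7.91 TPM in C57 and at 0.0715, 0.104, 2.08, 2.05 and 0.0883 TPM in Mixed WT replicates 1 to 5 (-1.96, limma adjusted p = 6.59e-05). Bambi-ps1, a pseudogene of the same run, was at 38.2 to 65.3 TPM in C57 and at 6.04, 4.57, 24.95, 24.4 and 5.74 TPM in Mixed mice (-2.23, adjusted p = 0.000716). In both, Mixed replicates 3 and 4 were intermediate, as they were for Lbp on the same chromosome.

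Processed pseudogenes, copies of mRNAs inserted back into the genome, took a larger share of RNA in Mixed islets. They held 0.378, 0.303, 0.302, 0.296 and 0.360% of TPM in C57 WT replicates 1 to 5 and 0.499, 0.532, 0.488, 0.497 and 0.447% in Mixed WT replicates 1 to 5. The groups did not overlap (two-sided exact permutation p = 0.00794, the smallest this design allows, adjusted over 5 shares 0.0397). In Het mice the ranges were 0.283 to 0.296% in C57 and 0.474 to 0.551% in Mixed. Of 559 processed pseudogenes tested 16.6% were called higher and 3.04% lower, against 6.07% and 4.63% of 13103 protein-coding genes. A pseudogene near 0 in C57 mice could pass the filter on low values through Mixed mice alone. The part of the filter in these shares was not tested. Of processed pseudogenes of any kind, 98 were called higher with the filter and 74 without it. Reads of a pseudogene and of its parent gene are nearly identical, so how the aligner divided them is uncertain, and the build named in the submitters' processing notes, mm39, is a C57-based genome.

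Rps2-ps10, a copy of the ribosomal protein gene Rps2, was at 1.03 to 1.51 TPM in C57 WT mice. In Mixed WT replicates 1 to 5 it was at 292, 290.1, 144, 127 and 144 TPM, a log2 difference of 6.39 (SE 1.13, limma adjusted p = 0.000760). Its parent Rps2 on chromosome 17 was at 558, 571, 580, 462 and 531 TPM in C57 and at 153, 161, 320, 290.1 and 321 TPM in Mixed mice (-1.19, adjusted p = 0.0103). Within the Mixed group the 2 genes stood in opposite order, since replicates 1 and 2 were highest for the copy and lowest for the parent. Copy and parent summed to 542 ± 47.4 TPM in C57 and 449 ± 19.4 TPM in Mixed mice (SD, n = 5).

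Rps18 and Rps18-ps6 showed the same split of the Mixed mice, with replicates 1 and 2 apart from the other 3. Rps18-ps6 is a pseudogene by name but annotated as protein coding, so the shares and counts of processed pseudogenes above leave it out. The copy was at 0.1496 to 0.438 TPM in C57 and at 96.9, 106, 53.5, 50.0 and 55.3 TPM in Mixed replicates 1 to 5 (5.81, limma adjusted p = 0.000823). The parent was at 158 to 198 TPM in C57 and at 89.6, 92.3, 127, 121 and 132 TPM in Mixed mice (-0.72, adjusted p = 0.0152), and the sums were 184 ± 16.1 and 185 ± 10.2 TPM. For Atp6v0c, a subunit of the vacuolar proton pump, the copy Atp6v0c-ps2 was at 192, 181, 74.0, 68.5 and 90.3 TPM in Mixed mice against 0.846 to 2.17 TPM in C57 (5.53, adjusted p = 0.000656). The parent Atp6v0c was lower in Mixed mice (-0.58, adjusted p = 0.0130), and here the sum was higher in Mixed mice, at 186 ± 50.8 TPM against 99.0 ± 16.7 TPM in C57 (SD, n = 5). Rnps1-ps, a copy of the splicing factor gene Rnps1, differed by 3.53 (adjusted p = 0.00124) and Rnps1 by -0.67 (adjusted p = 0.00215), with sums of 25.8 ± 2.94 TPM in C57 and 29.98 ± 3.60 TPM in Mixed mice. Without the 3 libraries of high mitochondrial share the parents Rps2 and Rps18 lost their calls (adjusted p = 0.0630 and 0.104), and the 4 copies kept theirs.

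These 4 parents lie on chromosome 17, and so do H2-T22, H2-T23 and H2-Q2, genes of MHC class I molecules that showed the same steps. H2-T23 was at 29.4, 30.1, 28.7, 25.6 and 31.4 TPM in C57 and at 3.52, 3.73, 14.4, 13.6 and 14.6 TPM in Mixed WT replicates 1 to 5 (-1.67, SE 0.47, limma adjusted p = 0.0239). H2-T22 was at 19.4 to 20.6 TPM in C57 and at 0.977, 1.35, 9.68, 9.21 and 12.4 TPM in Mixed mice (-1.85, adjusted p = 0.0374), and H2-Q2 differed by -0.998 (adjusted p = 0.0283). Mixed replicates 1 and 2 were far below the other 3 for H2-T22 and H2-T23. Class I genes are close copies of each other and differ between strains, so their separate values are uncertain. Leaving out Mixed replicate 1 or Mixed replicate 2 ended all 3 calls, with adjusted p-values of 0.0699 to 0.108 and 0.0735 to 0.109. Leaving out C57 replicate 3 ended those of H2-T22 and H2-Q2, and leaving out C57 replicate 1, 4 or 5 that of H2-T22. Without the 3 libraries of high mitochondrial share the adjusted p-values were 0.122 for H2-T22, 0.101 for H2-T23 and 0.0570 for H2-Q2, and with no filter on low values they were 0.0828, 0.0563 and 0.0634. H2-T22 also missed the threshold in WT mice alone (0.0562) and with an acinar score as covariate (0.0572).

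**Figure D5:**
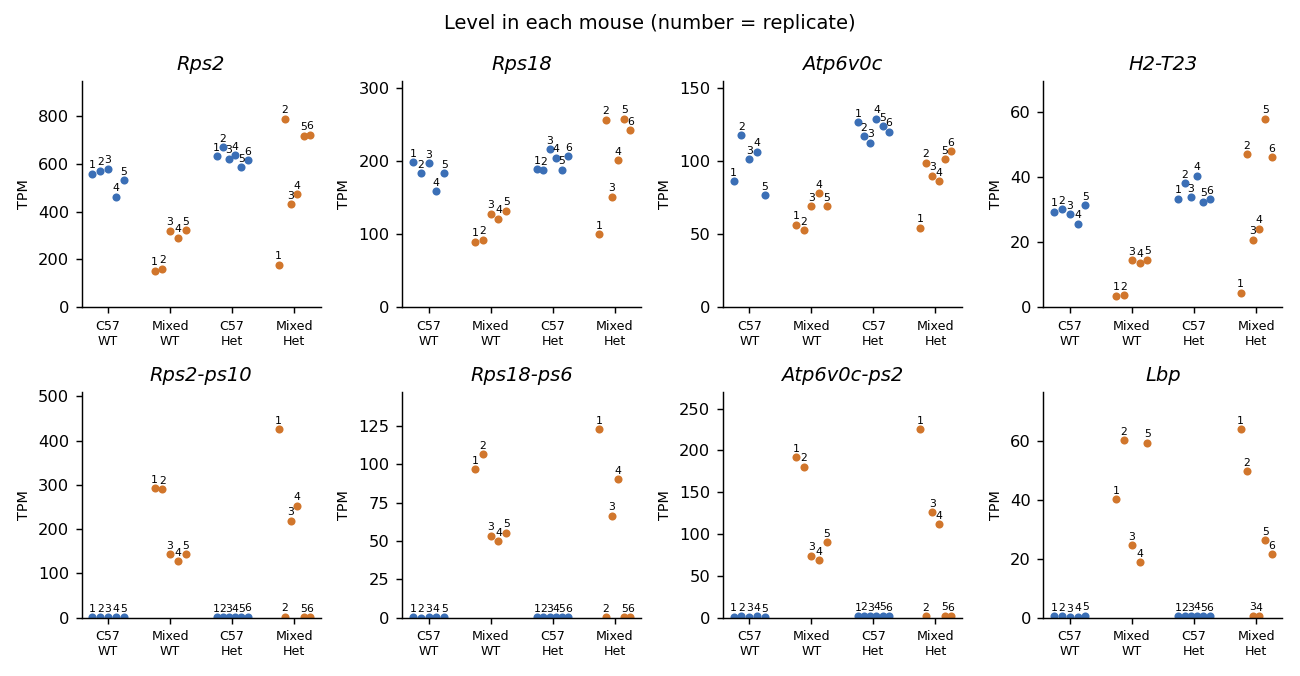
Each panel gives the TPM of 1 gene in every mouse, from 0 on a linear axis, with C57 mice in blue, Mixed mice in orange and the replicate number above each point. In Mixed WT mice the copies Rps2-ps10, Rps18-ps6 and Atp6v0c-ps2 are highest in replicates 1 and 2, where their parents and H2-T23 are lowest. In Mixed Het mice replicates 2, 5 and 6 lie at the C57 level for the copies, and Lbp is near 0 in replicates 3 and 4.

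The Mixed Het mice were uneven for these genes too. Rps2-ps10 was at 426, 2.28, 219, 253, 1.32 and 1.83 TPM in Mixed Het replicates 1 to 6, and H2-T23 at 4.37, 47.2, 20.7, 24.1, 58.0 and 46.1 TPM. Replicate 1 was highest for the copy and lowest for H2-T23, replicates 3 and 4 were between, and replicates 2, 5 and 6 were near C57 for the copy and above the C57 Het range of H2-T23 (32.4 to 40.5 TPM). For Lbp, replicates 3 and 4 stood at 0.725 and 0.546 TPM, next to the C57 values, while the others were at 63.95, 49.8, 26.3 and 21.6 TPM.

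Of 130 named pseudogenes tested, 26 were called higher and 4 lower, against 6.3% and 4.99% of all genes. Here too a copy could pass the filter on low values through Mixed mice alone. For the 23 higher ones whose parent was tested, the parent's difference was negative in 20, called lower in 8 and called higher in 2. Over all 16756 genes tested the difference was negative in 8025. These 23 copies have 21 distinct parents, of which 7 were called lower, where 4.99% of all genes were. Of the 23 copies, 19 were called higher in Het mice as well, where 13.3% of all genes were. Of all genes called in WT, 32.1% were called the same way in Het mice. Eif3j2, Hmga1b and Ahcyl, which are near-copies of Eif3j1, Hmga1 and Ahcy, followed the pattern of low C57 values too. Ahcyl was at 0.0940 to 0.274 TPM in C57 and at 9.05, 9.40, 3.79, 2.93 and 8.49 TPM in Mixed mice (2.60, limma adjusted p = 0.00297). Ahcy, the S-adenosylhomocysteine hydrolase of the methyl cycle, was at 20.99 to 30.9 TPM in C57 and at 8.44, 8.61, 12.3, 12.7 and 7.41 TPM in Mixed mice (-1.25, adjusted p = 0.00148). Hmga1b differed by 3.17 (adjusted p = 0.000541) and Eif3j2 by 3.49 (adjusted p = 0.000535).

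Of 38 beta-cell identity and secretion genes limma called 5 higher (13.2%, against 6.3% of all genes) and 0 lower (9 and 4 at an unadjusted p under 0.05), and the median was 0.05. Mafa, the beta-cell factor mutated in the Het mice, was at 362, 571, 375, 409 and 487 TPM in C57 and at 775, 534, 519.8, 440 and 720 TPM in Mixed mice, groups that overlapped (0.43, SE 0.19, adjusted p = 0.153). Glp1r, the receptor for the incretin GLP-1, was at 203 to 355 TPM in C57 and 366 to 526 TPM in Mixed WT mice (0.58, SE 0.14, adjusted p = 0.0103), but lower in Mixed than in C57 Het mice (-0.77, adjusted p = 0.000269; interaction adjusted p = 0.000512). G6pc2, the beta-cell glucose-6-phosphatase, was at 1510 to 2688 TPM in C57 and 2633 to 3642 TPM in Mixed mice (0.58, adjusted p = 0.0168). Scg5, a chaperone of the prohormone convertase PC2, differed by 0.75 (adjusted p = 0.0345). G6pc2 missed the threshold in WT mice alone (adjusted p = 0.112), with sample weights (0.37, adjusted p = 0.103), with no filter on low values (0.0556) and without C57 replicate 1 or 5 (0.0546 and 0.0544). Scg5 missed it with no filter (0.0784), quantile normalization (0.0713), an acinar score as covariate (0.0659) and without any one of C57 replicates 1, 4 and 5 or Mixed replicates 1, 2 and 5 (0.0606 to 0.0854). Without the 3 libraries of high mitochondrial share none of the 3 was called (Glp1r 0.42, adjusted p = 0.133; G6pc2 0.27, adjusted p = 0.334; Scg5 0.75, adjusted p = 0.125).

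Genes of alpha cells were among those lower in Mixed WT islets. Of 21 genes of the alpha, delta, PP and epsilon list limma called 4 lower (19.0%, against 4.99% of all genes) and 0 higher (1 higher and 6 lower at an unadjusted p under 0.05), with a median of -0.30, and the 4 were 2 in WT mice alone and 2 without the 3 libraries of high mitochondrial share. Ttr, the thyroxine carrier transthyretin and an alpha-cell-enriched gene, was at 4530, 2896, 2866, 2445 and 1700 TPM in C57 and 1305, 1162, 949, 1157 and 1547 TPM in Mixed mice (-1.18, SE 0.20, adjusted p = 0.000406). Irx1 and Irx2, alpha-cell homeobox genes, differed by -1.06 and -1.09 (adjusted p = 0.00406 and 0.00250), Irx1 with an adjusted p of 0.0547 in WT mice alone and 0.0565 without the 3 libraries of high mitochondrial share. In bulk islets fewer cells of a type and less RNA per cell cannot be told apart.

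Gcg, the glucagon gene, pointed the same way with more spread. Its share of TPM was 5.28, 4.55, 3.90, 2.19 and 1.73% in C57 WT and 1.76, 2.63, 1.53, 1.46 and 2.12% in Mixed WT replicates 1 to 5. The groups overlapped (exact permutation p = 0.0714, adjusted 0.179, and before adjustment 0.0397 without C57 replicate 4 and 0.0159 without C57 replicate 5). The limma difference was -0.80 (adjusted p = 0.0610), which passed without C57 replicate 4 or 5 or Mixed replicate 2 (adjusted p = 0.0356, 0.0179 and 0.0466). With all mice kept Gcg passed under a mean TPM of at least 5, eBayes without trend and sample weights (limma adjusted p = 0.0446, 0.0454 and 0.0407). Sst, the delta-cell hormone, gave 0.48 (adjusted p = 0.142) and Ppy, the PP-cell hormone, 0.08 (adjusted p = 0.899). Of 21 measured genes of the list 0 were listed at 0 in every WT mouse, and their summed level was 45447 to 90258 TPM in C57 and 44302 to 76483 TPM in Mixed mice. In Het mice 4 of the 21 tested genes of the list were called higher and 0 lower (13.3% and 7.13% of all genes), with a median of 0.18. The interaction passed for 5 (7.36% of all genes). The background difference of Ttr, Irx1 and Irx2 differed from that in Het mice (interaction adjusted p = 0.0370, 0.0211 and 0.0366), where it was -0.26, 0.18 and -0.04.

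Of 37 interferon-stimulated genes limma called 9 lower (24.3%, against 4.99% of all genes) and 3 higher (8.11%, against 6.3%) in Mixed WT islets, with a median of -0.24. In Het mice 4 were called each way, and of the 9 lower in WT 2 were called lower there, Rsad2 and Ifih1. Rsad2, the antiviral protein viperin, was at 17.4, 15.9, 15.7, 16.02 and 24.01 TPM in C57 and at 11.2, 4.47, 9.59, 3.45 and 3.96 TPM in Mixed mice (-1.43, SE 0.28, limma adjusted p = 0.00211), and the Het mice gave -1.54. Ifih1, a sensor of double-stranded RNA, was at 4.03 to 7.84 TPM in C57 and 2.81 to 4.19 TPM in Mixed mice (-0.67, adjusted p = 0.00242). Usp18 and Isg20 went the other way, by 0.68 and 0.39 (adjusted p = 0.00178 and 0.00269), Isg20 with 0.0584 without the 3 libraries of high mitochondrial share. The count of lower genes was 1 without those 3 libraries, where Rsad2 had an adjusted p of 0.0605, and 4 without C57 replicate 5, 5 without Mixed replicate 2 and 5 without Mixed replicate 4. Of 23 MHC and antigen presentation genes 5 were called lower (21.7%) and 2 higher (8.7%), the larger rise being that of H2-Q10, a class I gene of low level here (0.0452 to 0.129 TPM in C57, 0.497 to 2.96 TPM in Mixed, 1.37, adjusted p = 0.000541). In Het mice 6 of these 23 were called higher and 1 lower (13.3% and 7.13% of all genes), with a median of 0.19.

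Macrophage and other leukocyte markers were read beside these lists. Limma called 2 of 15 tested markers lower (13.3%, against 4.99% of all genes), 0 higher and 13 in neither direction, with a median of -0.22 (4 lower and 0 higher at an unadjusted p under 0.05). In Het mice 13 of the 15 were called higher and 1 lower (13.3% and 7.13% of all genes), with a median of 0.68, and the interaction passed for 10 (7.36% of all genes). In WT mice the summed level of all 25 listed markers was 298 to 366 TPM in C57 and 171 to 235 TPM in Mixed mice, with 0 of them at 0 in every mouse. C1qa, a complement C1q chain made by macrophages, was at 194, 172, 172, 153 and 200.1 TPM in C57 and at 83.7, 62.8, 80.2, 84.5 and 88.2 TPM in Mixed mice. Its log2 difference was -1.15 (SE 0.17, adjusted p = 0.000163) in WT and 0.13 in Het mice (interaction adjusted p = 0.00362). The part of these cells in the interferon and MHC results was not tested.

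In glutathione and xenobiotic metabolism 5 of 31 genes were called lower (16.1%, against 4.99% of all genes) and 3 higher (9.68%, against 6.3%). Gpx2, a selenium-dependent glutathione peroxidase, was at 12.7, 14.2, 14.9, 14.1 and 15.1 TPM in C57 and at 4.77, 3.99, 6.51, 4.99 and 4.65 TPM in Mixed mice. The groups were well apart, with a log2 difference of -1.36 (SE 0.16, limma adjusted p = 8.16e-06) that the Het mice did not show (0.02, interaction adjusted p = 0.00109). Gstp1, a glutathione transferase, and Mgst3, its microsomal relative, differed by -0.51 and -0.47 (adjusted p = 0.00169 and 0.000274), and both also passed the interaction (adjusted p = 0.00997 and 0.00474). Hmox1, the inducible heme oxygenase, was higher by 0.56 (adjusted p = 0.00231).

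Of 36 nuclear genes of mitochondrial redox and oxidative phosphorylation 2 were called higher (5.56%) and 1 lower (2.78%), with a median of -0.03. Nnt, the mitochondrial transhydrogenase that C57BL/6J mice are known to lack in intact form, did not pass the filter. It was at 0.167 to 0.318 TPM in C57 and 0.243 to 0.423 TPM in Mixed WT mice, low in both groups. Cox7a2l, which shapes respiratory supercomplexes and is known to differ between inbred strains, was at 193 to 232 TPM in C57 and at 136, 147, 208, 131 and 133 TPM in Mixed mice (-0.50, adjusted p = 0.0178), Mixed replicate 3 lying within the C57 range, and the adjusted p was 0.107 without the 3 libraries of high mitochondrial share.

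Genes chosen for known strain variation gave 2 calls higher (16.7%, against 6.3%) and 0 lower among 12 tested (4 and 0 at an unadjusted p under 0.05). Alad, the delta-aminolevulinate dehydratase of heme synthesis, whose copy number differs among inbred strains, was at 23.9, 18.8, 18.5, 17.0 and 45.6 TPM in C57 and at 60.7, 56.8, 56.8, 63.0 and 63.2 TPM in Mixed WT mice. The difference was 1.34 (SE 0.30, limma adjusted p = 0.00612), and C57 replicate 5 stood apart from the other C57 mice. In C57 Het mice Alad was at 18.2, 20.9, 33.4, 36.9, 19.5 and 40.1 TPM, so the C57 mice were uneven for this gene as well.

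The remaining lists held few calls. Of 4 Y-linked genes tested limma called 2 higher (50%, against 6.3% of all genes) and 0 lower, and in Het mice 0 either way. Of 15 islet neuropeptide and receptor genes tested 2 were called higher (13.3%) and 0 lower. Of 26 senescence and secretory genes 2 were called higher (7.69%) and 1 lower (3.85%). Of 16 Schwann and neuronal markers 1 was called each way (6.25%). In the circadian clock list 3 of 18 genes were called higher (16.7%, against 6.3%) and 0 lower (6 and 0 at an unadjusted p under 0.05). Per2, a clock repressor, was at 11.4 to 33.7 TPM in C57 and 28.1 to 108 TPM in Mixed mice (1.17, limma adjusted p = 0.0113), and its call ended in WT mice alone (0.118) and without the 3 libraries of high mitochondrial share (0.190). Mcm4, a subunit of the replicative helicase, was the 1 of 27 cell cycle genes called (3.7% of them; 1.14, adjusted p = 0.00189), with 2 higher and 2 lower at an unadjusted p under 0.05, and without those 3 libraries its adjusted p was 0.0662. Limma called 0 of 24 cholesterol synthesis genes, 0 of 14 mitochondrially encoded genes, 0 of 16 endothelial and 0 of 21 mesenchymal markers, where 4, 0, 2 and 2 passed an unadjusted p of 0.05. Of 15 ductal markers 2 (13.3%) were called each way. Prom1, an apical membrane protein, was at 37.4 to 58.9 TPM in C57 and 10.7 to 42.0 TPM in Mixed mice (-1.21, adjusted p = 0.00308). Krt8, a keratin of simple epithelia, differed by 0.91 (adjusted p = 0.0199) and missed the threshold without C57 replicate 3 or 5 or Mixed replicate 2, 3 or 4 (0.0518 to 0.0676), in WT mice alone (0.152) and without the 3 libraries of high mitochondrial share (0.208).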

How the data were processed

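Islet RNA of the 10 WT mice (5 Mixed, 5 C57) was compared, with the 12 Het mice entering the same model. Per the file headers, the authors deposited 1 table of TPM with 57010 genes and 22 value columns, each summing to 1000000. Libraries used poly(A) selection, per the labels' protocols. The submitters' processing notes name STAR 2.7.10b, MultiQC 1.7 and the genome build mm39, with no role or order. Read totals cannot be recovered from TPM. Sequencing depth per library is therefore unknown, and no counting interval was computed.

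The analysis used log2(TPM + 1), a scale that shrinks differences of genes with low TPM. Genes with TPM of at least 1 in at least 5 of 22 samples were tested. limma 3.58.1 in R 4.3.3 (lmFit, eBayes with trend) fitted 4 group means over 22 samples, with Benjamini-Hochberg adjustment over 16756 genes and a threshold of 0.05. The interaction is the WT minus the Het background difference. Shares of TPM were compared by exact permutation over the mice. Where 150 symbols were repeated, the row of highest mean was used. Gene type and order came from GENCODE M21 (GRCm38), which held 52029 of the IDs. Its positions served only for gene order and for the overlapping pairs named on chromosome 3, and none is printed, since the build differs. The scripts were tested on simulated data.

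Named genes were the 12 largest differences each way (called, groups apart, mean of at least 5 TPM in a WT group), up to 4 called genes each way per list, 3 pseudogenes each way, up to 8 called genes of each of the 2 densest runs and fixed islet genes. Which of them are described was chosen after values were seen, and so were Calr, Creld2, Asns, Atf4, Ahcy, Rnps1-ps and the pseudogene parents, which the rule does not name. The comparison and the 25 lists were chosen with earlier results of these data known. Alternatives were another pseudocount (0.1), other filters (none, mean TPM of at least 5), scalings (median of ratios, quantile, total without abundant genes), WT mice alone, eBayes without trend, sample weights, an acinar covariate, each WT replicate left out and, added after seeing the data, the 3 libraries of highest mitochondrial share left out and the list counts under every setting. One named gene is not reported here.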

Additional observations from a re-analysis of the deposited data

Results flagged for a closer look

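For 22 of the genes described in the report the background difference passed the test of a difference between WT and Het mice (limma interaction, adjusted p under 0.05), and the values that follow are the WT minus the Het log2 difference. More positive in WT were Kcnj5 at 2.94, Tdrd6 at 2.29, Arhgap36 at 1.42, Ddit3 at 1.36, Per2 at 1.35, Glp1r at 1.35, Mcm4 at 1.09 and Asns at 0.72. More negative in WT were Slc28a2b at -1.89, Mapk15 at -1.83, Arrdc4 at -1.81, Txnip at -1.52, Gpx2 at -1.37, C1qa at -1.28, Irx1 at -1.24, C8b at -1.20, Irx2 at -1.06, Cldn4 at -1.02, Ttr at -0.93, Lix1l at -0.69, Gstp1 at -0.62 and Mgst3 at -0.54. For Glp1r the 2 genotypes were called in opposite directions.

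In 9 of 158 groups of 5 values examined, 1 mouse stood apart from the others by Dixon's criterion (critical value 0.71), and chance gives about 1 in 20. Among C57 WT mice these were replicate 5 for Alad at 45.6 TPM, Rsad2 at 24.01 TPM and Arhgap36 at 4.10 TPM. They were also replicate 1 for Ins2 at 220530 TPM and for the insulin share at 34.6%, and replicate 2 for Hmox1 at 6.997 TPM. Among Mixed WT mice they were replicate 2 for Sst at 15700 TPM, replicate 3 for Cox7a2l at 208 TPM and replicate 4 for Usp18 at 12.9 TPM.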

How the results depend on the processing

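The 1892 calls became 1251 with a mean TPM of at least 5, 831 in WT mice alone, 797 without the 3 libraries of highest mitochondrial share and 383 with a log2 difference of at least 1, and 1409 to 2376 with each replicate left out. Higher calls (1056) became 442 in WT mice alone, 415 without the 3 libraries and 263 at a difference of at least 1 (716 to 1423 with each replicate left out). Lower calls (836) became 533 (mean TPM of at least 5), 1434 (quantile), 1335 (total without abundant genes), 389 (WT mice alone), 382 (without the 3 libraries), 120 (at least 1) and 531 to 1034 with each replicate left out, the lowest without C57 replicate 1. The 607 shared with Het mice became 362 with a mean TPM of at least 5 and 939 with sample weights (461 to 652 with each replicate left out). The 1233 interaction calls became 714 with no filter, 2628 with sample weights and 419 without the 3 libraries (844 to 1775 with each replicate left out). Fewer genes or samples enter the filtered, WT-alone and 3-library fits, and for the others the cause was not tested.

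Of the lists, 16 higher unfolded protein response genes became 9 without the 3 libraries (12 to 17 with each replicate left out). The 9 lower interferon genes became 4 (mean TPM of at least 5), 3 (WT mice alone), 1 (without the 3 libraries) and 4 to 9 (each replicate left out). The 4 lower alpha list genes became 2 in WT mice alone and 2 without the 3 libraries (3 to 5 with each replicate left out). The 98 higher processed pseudogenes of any kind became 29 and 64 under a mean TPM of at least 5 and without the 3 libraries (79 to 113 with each replicate left out). Median-of-ratios scaling gave 17.8% called on chromosome 14 and 11.2% on chromosome 8.

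With each replicate left out, the Mixed minus C57 difference in share of TPM, in percentage points, ranged from -0.644 to 1.40 for insulin, -2.08 to -1.19 for Gcg, -1.47 to 0.257 for mitochondrial and 0.0151 to 0.0434 for acinar transcripts. The uncalled genes Atf4, Ins2 and Ppy changed sign. Atf4 gave -0.028 with quantile normalization, -0.026 with the total without abundant genes, -0.014 with sample weights, -0.077 without the 3 libraries and -0.079 to 0.12 with each replicate left out, Ins2 gave -0.062 to 0.025 and Ppy -0.10 to 0.22 with each replicate left out, and Ppy -0.0084 without the 3 libraries. Of 110 named genes called, 50 were called in all 21 alternatives and 0 changed sign. No paired analysis was possible because the labels give neither litters nor pairs. The replicate numbers used here follow the order of the library numbers within each group. Depth is unknown, so what it limits could not be measured.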
